A study of Mus musculus with 20 samples.

Results

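TNF, its receptors and the genes that set survival or death downstream of them were followed in mouse bone marrow-derived macrophages through 10 genes: *Tnf*, *Tnfsf10*, *Tnfrsf1a*, *Tnfrsf1b*, *Fas*, *Traf1*, *Birc2*, *Birc3*, *Cflar* and *Tnfaip2*. They were taken by symbol from a count table of 21963 gene entries, and all 10 were found and were among the 11707 entries with enough counts to test. As they were picked when earlier results of these data were known, their counts and medians describe these 10 genes only. TNF is a cytokine that macrophages release early after they meet microbial material, and it binds the receptors TNFR1 and TNFR2. TNFR1 recruits adaptors and ubiquitin ligases of the cIAP family that switch on NF-κB, and NF-κB in turn induces genes that hold back caspase-8. When that survival arm fails, TNFR1, and likewise FAS and the receptors of TRAIL, can start apoptosis or necroptosis.

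RNA was sequenced in 20 libraries of these macrophages, which the labels call biological replicates without naming the animals. The groups were 4 WT untreated, 5 WT with zymosan, 4 WT with zymosan and BAPTA-AM, 4 *Mcu*-/- untreated and 3 *Mcu*-/- with zymosan. Zymosan, a yeast cell wall preparation sensed by Dectin-1 and TLR2, was given for 3 h at 2 particles to 1 cell. BAPTA-AM is a Ca2+ chelator that enters cells and was used at 10 µM. *Mcu* encodes the pore of the mitochondrial Ca2+ uniporter, and the study describes its *Mcu*-/- macrophages as derived from mice with a floxed *Mcu* and Cre driven by *Cx3cr1*. The study describes mice of 15 to 25 weeks of both sexes, and the labels do not give the sex or age of single libraries. Total counts were 14.4 to 19.3 M per library in WT untreated, 20.3 to 22.4 M in WT with zymosan and 17.4 to 21.7 M with BAPTA-AM. They were 21.9 to 22.8 M in *Mcu*-/- untreated and 20.1 to 24 M in *Mcu*-/- with zymosan.

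Levels are given as normalized counts, which are counts per M of TMM-scaled library size (CPM) times the mean scaled size of 20.8 M, with mean ± SD over libraries. A gene was called where the Benjamini-Hochberg adjusted p of edgeR's quasi-likelihood test over all 11707 entries was under 0.05. The normalized counts of *Mcu* itself ran from 127 to 199 over the 13 WT libraries and from 54.7 to 84.2 over the 7 *Mcu*-/- ones, so every library fell on the side its label gives. Its log2 fold change in *Mcu*-/- against WT was −0.82 with zymosan (edgeR adjusted p = 9.61e-05) and −1.14 untreated (edgeR adjusted p = 0.000163). *Mcu* overlaps *Gm10322* on the other strand, and whether the counting used strand is not given in the sources used here.

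Untreated *Mcu*-/- replicate 4 stood apart from its group. The mean chi-square per gene was 221 to 231 in its 3 pairs with the other untreated *Mcu*-/- libraries, against 1.61 to 6.63 in the 28 other pairs of replicates. Of the genes followed here, *Tnf* had 1923, 2043 and 1770 normalized counts in untreated *Mcu*-/- replicates 1 to 3 and 3581 in replicate 4. *Cflar* had 2318, 2236 and 2248 and then 3491. *Fas* had 128, 149 and 180 and then 92.5. For *Tnf*, *Cflar*, *Tnfrsf1a* (3480), *Tnfrsf1b* (11088), *Traf1* (41.3) and *Tnfaip2* (1686) replicate 4 was the highest of the untreated libraries of both genotypes. It was the lowest for *Fas* and *Birc3* (1118), and within the range of the others for *Tnfsf10* (77.6) and *Birc2* (390).

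Markers of cell types moved with the same libraries. The 8 macrophage markers, led by *Lyz2*, summed to 8557 CPM in untreated *Mcu*-/- replicate 4 and to 10409, 10768 and 10728 in the *Mcu*-/- libraries with zymosan, against 13358 to 16396 in the other 16 libraries. That list was split. *Lyz2* (2820 CPM in replicate 4 and a mean of 3240 in *Mcu*-/- with zymosan, against 7200 in untreated WT and 8180 in WT with zymosan), *Adgre1* (2460 and 2840, against 4110 and 4920) and *Itgam* (238 and 275, against 730 and 869) were lower. *Cd68* (971 and 1160, against 223 and 309), *Fcgr1* (518 and 573, against 109 and 212), *Csf1r* (1270 and 1080, against 855 and 562) and *Mertk* (76 and 76, against 32.9 and 60.6) were higher. *Cd14* was on neither side, at 198 in replicate 4 (219 in untreated WT) and 1390 in *Mcu*-/- with zymosan (1100 in WT with zymosan). The 5 fibroblast markers summed to 28.3 CPM in replicate 4 and to 52.3, 44.0 and 50.9 in *Mcu*-/- with zymosan, against 1.10 to 6.63 elsewhere, with *Col1a2* and *Col1a1* the most abundant and *Dcn* and *Pdgfra* near 0 in all groups. Neutrophil markers, led by *S100a9*, summed to 0.159 CPM in replicate 4 and at most 0.765 in *Mcu*-/- with zymosan, against 2.40 to 5.77 in the others. B cell markers, almost all *Cd79b*, summed to 18.8 and to 13 to 13.6, against 30.8 to 55.8. Endothelial markers, led by *Pecam1*, summed to 25.9 CPM in replicate 4 and to 25.9 to 27.8 in *Mcu*-/- with zymosan, against 37.9 to 56.2. *Pecam1* of that list fell and *Tek* had at most 5 counts in any library, while *Cdh5* was at 5.71 CPM in replicate 4 and 7.05 in *Mcu*-/- with zymosan, against 1.72 in untreated WT and 1.37 in WT with zymosan, and *Kdr* at 2.86 and 4.68, against 0.89 and 3.05. T cell markers, led by *Cd4* and with *Cd8a* at 0 counts, summed to 3.61 CPM in replicate 4 and 3.84 to 4.23 in *Mcu*-/- with zymosan, against 1.12 to 3.42 elsewhere. Dendritic cell markers, led by *Xcr1*, summed to 0.782 to 1.31 CPM in untreated libraries of both genotypes, 9.1 to 10 in WT with zymosan, 5.46 to 7.31 with BAPTA-AM, and 10.7 to 11.9 in *Mcu*-/- with zymosan, with *Cd209a* at 0 counts in all libraries. Markers of NK cells (led by *Klrb1c*, *Ncr1* at 0), mast cells and basophils (led by *Mcpt8*, *Fcer1a* at 0) and erythroid cells (led by *Hba-a1*) summed to at most 0.551, 0.155 and 0.712 CPM. The part of this shift in the differences between *Mcu*-/- and WT was not tested, and since it covers all 3 *Mcu*-/- libraries with zymosan, it cannot be told apart from genotype where these are compared with WT. As untreated *Mcu*-/- replicates 1 to 3 lack the shift, it also cannot be told apart from zymosan in the response of *Mcu*-/- macrophages, nor from the difference between the responses of the genotypes. Fewer cells of a type and less RNA per cell cannot be told apart in these bulk libraries.

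**Figure D1:**
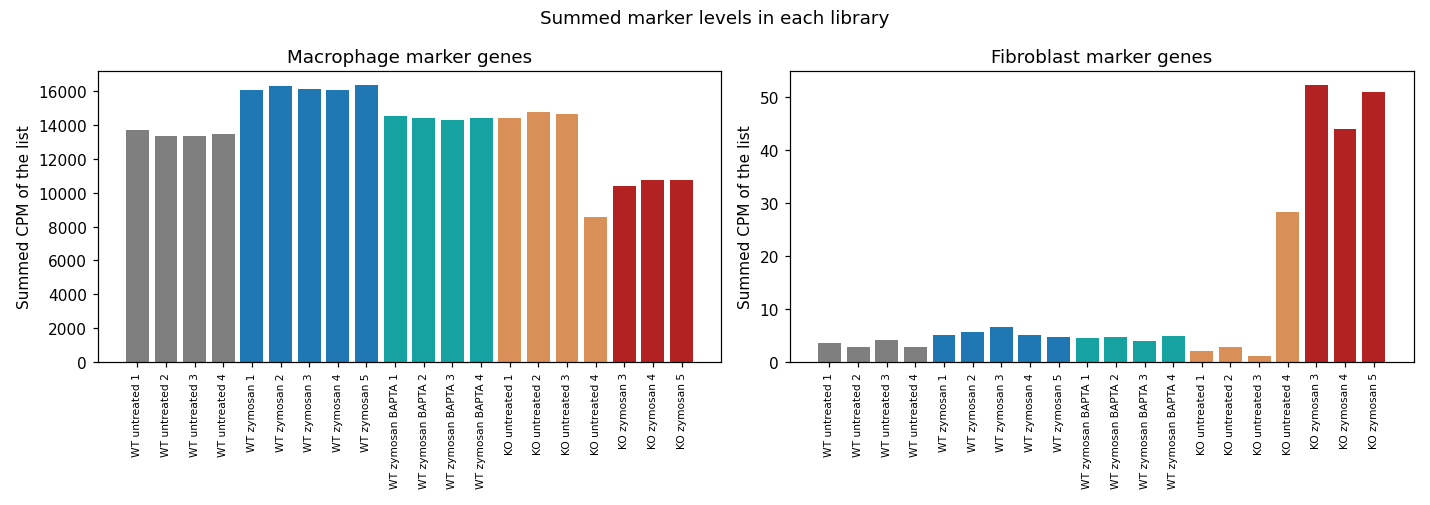
Summed CPM of the macrophage markers (left) and the fibroblast markers (right) in each of the 20 libraries, with 1 bar per library and colours for the 5 groups; KO stands for *Mcu*-/-. Untreated *Mcu*-/- replicate 4 and the 3 *Mcu*-/- libraries with zymosan have fibroblast sums of 28.3 to 52.3 CPM, and the other libraries at most 6.63.

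Zymosan raised all 10 genes in WT macrophages, where 32.4% of all genes tested were called higher and 36.8% lower. It also raised all 10 in *Mcu*-/- macrophages, where 34.3% of genes were called higher and 39.4% lower. The median log2 fold change of the 10 genes was 3.65 in WT and 2.89 in *Mcu*-/-, against −0.04 and −0.06 over all genes. With library totals in place of TMM the median of all genes moved by −0.49 in WT and −0.52 in *Mcu*-/-, and of the genes called, 18.6% and 19.0% were higher, against 46.8% and 46.5% with TMM. All 10 genes were still called higher in both genotypes on that scale.

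Of the ligands, *Tnf* (chromosome 17 of mm10, 35199381 to 35202007) had 2011, 2227, 2191 and 1997 normalized counts in the untreated WT libraries. With zymosan the 5 WT libraries had 35883, 36328, 35639, 36991 and 36473. The 3 *Mcu*-/- libraries with zymosan had 77770, 76569 and 77702. No library of a zymosan group lay near an untreated one, and each *Mcu*-/- library with zymosan had more than 2 times the *Tnf* counts of any WT library. The log2 fold change with zymosan was 4.11 (SE 0.16, edgeR adjusted p = 2.57e-14) in WT and 5.05 (SE 0.17, edgeR adjusted p = 5.30e-15) in *Mcu*-/- macrophages. Without untreated *Mcu*-/- replicate 4, the latter was 5.34, and with it as the only untreated *Mcu*-/- library, a fit added after the data were seen, 4.43. *Tnfsf10* encodes TRAIL, a ligand of death receptors. It had 73.6, 82.1, 79.3 and 74.7 normalized counts in untreated WT, 1421, 1350, 1315, 1479 and 1324 in WT with zymosan and 2073, 2113 and 2172 in *Mcu*-/- with zymosan. These 3 groups did not overlap, and the log2 fold change with zymosan was 4.15 (SE 0.09, edgeR adjusted p = 1.97e-18) in WT and 4.69 (SE 0.09, edgeR adjusted p = 7.16e-19) in *Mcu*-/-.

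The receptors differed in how far they rose. *Tnfrsf1a*, which encodes the death domain receptor TNFR1, went from 2851 ± 92.0 (n = 4) to 5344 ± 87.4 (n = 5) normalized counts in WT and from 3042 ± 295 (n = 4) to 5298 ± 151 (n = 3) in *Mcu*-/-. These are log2 fold changes of 0.91 and 0.80. *Tnfrsf1b*, which encodes TNFR2, a receptor without a death domain, went from 9500 ± 493 to 32163 ± 1672 in WT and from 9729 ± 920 to 39278 ± 1343 in *Mcu*-/-, log2 fold changes of 1.76 and 2.01. *Fas*, a death domain receptor for FAS ligand, had 145, 131, 168 and 183 normalized counts in untreated WT and 2605, 2622, 2763, 2635 and 2531 in WT with zymosan. In *Mcu*-/- with zymosan it had 691, 673 and 689. The *Mcu*-/- libraries thus lay between the untreated and the zymosan libraries of WT, with no overlap with either, and the log2 fold change with zymosan was 4.08 (SE 0.13, edgeR adjusted p = 1.04e-15) in WT and 2.31 (SE 0.13, edgeR adjusted p = 1.53e-11) in *Mcu*-/-. The latter was 2.17 without untreated *Mcu*-/- replicate 4 and 2.88 with it as the only untreated *Mcu*-/- library. The gene for FAS ligand, *Fasl*, did not pass the filter on low counts.

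Among the adaptors and survival genes, *Traf1*, an NF-κB target that encodes an adaptor bound to TNFR2 and cIAPs, had the lowest counts at rest. It had 31.9, 28.2, 24.9 and 21.0 normalized counts in untreated WT, 1497, 1452, 1417, 1489 and 1411 in WT with zymosan and 1976, 1966 and 2133 in *Mcu*-/- with zymosan. Its log2 fold change, 5.75 in WT (SE 0.10, edgeR adjusted p = 1.12e-19) and 5.93 in *Mcu*-/- (SE 0.10, edgeR adjusted p = 1.03e-19), was the largest of the 10 genes in both genotypes. *Cflar* encodes cFLIP, which keeps caspase-8 from being activated at death receptors. It had 2257, 2358, 2375 and 2318 normalized counts in untreated WT, 22946, 22404, 22100, 21274 and 20337 in WT with zymosan and 28927, 28326 and 28635 in *Mcu*-/- with zymosan. All 3 groups were again separate, with log2 fold changes with zymosan of 3.23 in WT and 3.48 in *Mcu*-/-.

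*Birc2* and *Birc3*, which encode the ubiquitin ligases cIAP1 and cIAP2, lie next to each other on chromosome 9 of mm10, 11634 bases apart and on the same strand. *Birc2* had 455, 382, 452 and 477 normalized counts in untreated WT, 708, 681, 742, 759 and 688 in WT with zymosan and 978, 911 and 953 in *Mcu*-/- with zymosan. *Birc3* had 1321, 1447, 1370 and 1252, then 4922, 5079, 5072, 5228 and 5069, and 4709, 4438 and 4654 in the same groups. The *Mcu*-/- libraries with zymosan were above all WT libraries for *Birc2* and below all WT libraries with zymosan for *Birc3*. The log2 fold change with zymosan was 0.70 in WT and 1.30 in *Mcu*-/- for *Birc2*, and 1.91 and 1.84 for *Birc3*. *Tnfaip2*, named as a gene that TNF induces, had 1412 ± 107 normalized counts in untreated WT (n = 4), 40951 ± 609 in WT with zymosan (n = 5) and 63348 ± 1350 in *Mcu*-/- with zymosan (n = 3). Its log2 fold change with zymosan was 4.86 in WT and 5.43 in *Mcu*-/-. *Tnfaip2* overlaps the antisense gene *Gm40578*, whose reads cannot be told apart from its own without strand. *Fas* overlaps *Gm27818*, a miscellaneous RNA on the same strand, so strand would not separate their reads.

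**Figure D2:**
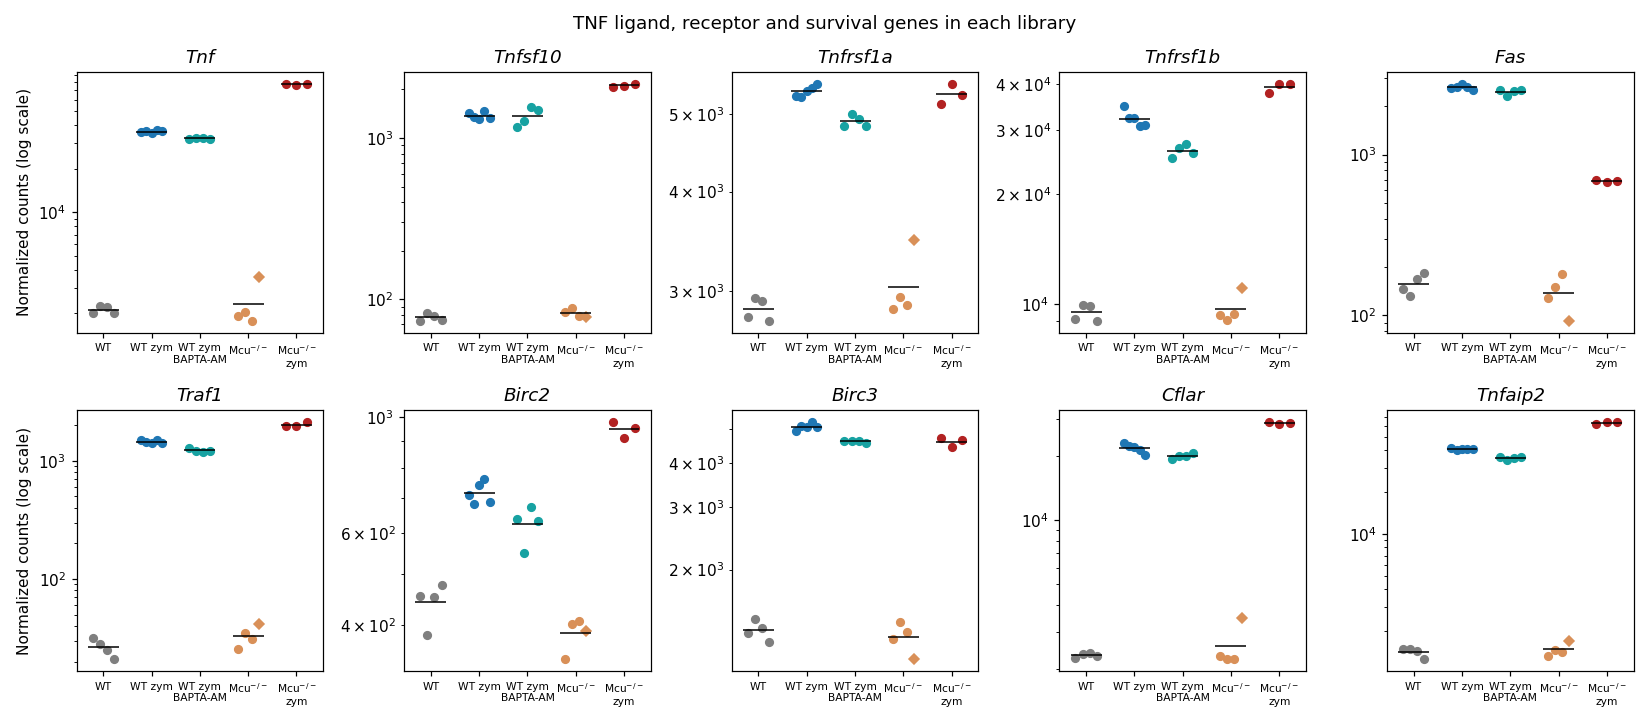
Normalized counts of the 10 genes (log axis) in each of the 20 libraries by group (zym, zymosan), with 1 point per library and a line at the group mean; the diamond is untreated *Mcu*-/- replicate 4. With zymosan, *Tnf* lies between 76569 and 77770 in *Mcu*-/- and between 35639 and 36991 in WT libraries, whereas *Fas* lies between 673 and 691 in *Mcu*-/- and between 2531 and 2763 in WT.

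Levels of different genes were compared as CPM per kilobase of exon. In untreated WT macrophages the order was *Tnfrsf1b* (120 ± 6.21), *Tnf* (61.8 ± 3.50), *Tnfrsf1a* (52.9 ± 1.71), *Tnfaip2* (13.6 ± 1.03), *Birc3* (12.9 ± 0.788), *Cflar* (8.83 ± 0.199), *Birc2* (4.64 ± 0.433), *Fas* (3.65 ± 0.549), *Tnfsf10* (0.707 ± 0.0361) and *Traf1* (0.145 ± 0.0254). The neighbours *Tnfaip2* and *Birc3* differed by less than their spread. In WT with zymosan *Tnf* led (1063 ± 15.5), before *Tnfrsf1b* (405 ± 21.0) and *Tnfaip2* (395 ± 5.87), which did not differ beyond their spread. *Tnfrsf1a* (99.1 ± 1.62), *Cflar* (82.7 ± 3.88), *Fas* (61.3 ± 1.95), *Birc3* (48.7 ± 1.04), *Tnfsf10* (12.6 ± 0.641), *Traf1* (7.92 ± 0.217) and *Birc2* (7.51 ± 0.356) followed. Of these, *Traf1* and *Birc2* did not differ beyond their spread. In *Mcu*-/- with zymosan *Tnf* was at 2268 ± 19.8, *Tnfaip2* (611 ± 13) came before *Tnfrsf1b* (494 ± 16.9), and *Fas* (15.9 ± 0.236) came after *Birc3* (44.1 ± 1.37) and *Tnfsf10* (19.3 ± 0.458).

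*Mcu*-/- and WT macrophages under zymosan were compared by their levels, without taking off the untreated levels. All 3 *Mcu*-/- libraries with zymosan carry the marker shift, which cannot be told apart from genotype in this comparison. Of the 10 genes, 7 were called higher, where 31.8% of all genes tested were higher, and 2 were called lower, where 30.3% were. The median log2 fold change was 0.40, against 0.02 over all genes. *Tnf* had the largest rise, by a log2 of 1.09 (edgeR adjusted p = 5.82e-06, SE 0.14), and was higher in 3 of 3 *Mcu*-/- libraries than in any WT library. The share of all genes whose libraries separate in this comparison was not counted, so such separations describe single genes only. *Tnfaip2* (0.63), *Tnfsf10* (0.62), *Traf1* (0.48), *Birc2* (0.41), *Cflar* (0.39) and *Tnfrsf1b* (0.29) were also called higher, with edgeR adjusted p from 2.25e-07 to 0.00286. Untreated *Mcu*-/- replicate 4 had moved the same way from untreated WT for *Tnf*, *Tnfaip2*, *Traf1*, *Cflar* and *Tnfrsf1b*, but not for *Tnfsf10* or *Birc2*. It had also done so for *Fas* and *Birc3*, the genes called lower.

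*Fas* went the other way, at 684 ± 10.1 normalized counts in the 3 *Mcu*-/- libraries and 2631 ± 83.8 in the 5 of WT. Its log2 fold change was −1.94 (edgeR adjusted p = 8.63e-10, SE 0.13). *Birc3* was lower by a small margin, at a log2 of −0.14 (edgeR adjusted p = 0.0441, SE 0.06). That call was lost with DESeq2's size factors (edgeR adjusted p = 0.0545), without the filter (0.0596) and in 13 of the 20 fits that left out 1 library, and over all alternatives its adjusted p ran from 0.000146 to 0.156. The 13 were those without any 1 of the BAPTA-AM libraries, of the *Mcu*-/- libraries with zymosan, of WT zymosan replicates 2 to 5 and of untreated WT replicates 1 and 3, and the log2 fold change in them was −0.16 to −0.12. *Tnfrsf1a* had 5298 ± 151 and 5344 ± 87.4 normalized counts with overlapping libraries and was not called (log2 fold change −0.01, edgeR adjusted p = 0.852). So the TNFR1 gene stayed within its spread between genotypes while the genes for its ligand and for TNFR2 were higher and that for FAS was lower.

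In untreated macrophages none of the 10 genes was called by edgeR in *Mcu*-/- against WT, where 0.128% of all genes were called higher and 0.222% lower. At an unadjusted p under 0.05 there was 1 gene, against 1743 of all 11707, and it was *Birc2* (344, 402, 407 and 390 normalized counts in *Mcu*-/-, log2 fold change −0.19, edgeR adjusted p = 0.255), and DESeq2 called 0. The log2 fold changes of the others ran from −0.18 for *Fas* to 0.30 for *Traf1*, and the libraries of the genotypes overlapped for all 10, where those of 7.09% of all genes did not. Without untreated *Mcu*-/- replicate 4, 1 gene was called, *Tnf*, which was then lower in *Mcu*-/- (1912 ± 137, n = 3, against 2106 ± 119, n = 4, log2 fold change −0.14, edgeR adjusted p = 0.0287; up to 0.822 over all alternatives). With that library its log2 fold change was 0.14 (edgeR adjusted p = 0.612). Without it 1.53% of all genes were called higher and 1.83% lower.

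The zymosan responses of the genotypes were compared directly by the difference of their log2 fold changes. This was called positive for 5 of the 10 genes, where 15.2% of all genes were, and negative for 1, where 20% were. It was 0.95 for *Tnf* (SE 0.20, edgeR adjusted p = 0.00197), 0.60 for *Birc2* (0.000361), 0.57 for *Tnfaip2* (0.00012), 0.54 for *Tnfsf10* (0.00254) and 0.25 for *Tnfrsf1b* (0.0322). It was −1.76 for *Fas* (SE 0.18, edgeR adjusted p = 1.14e-06). The differences for *Traf1* (0.18), *Cflar* (0.25), *Birc3* (−0.08) and *Tnfrsf1a* (−0.11) were not called. Without untreated *Mcu*-/- replicate 4 the difference was 1.23 for *Tnf* and −1.92 for *Fas*, and those of *Cflar* (0.43, edgeR adjusted p = 4.04e-10; up to 0.34 over all alternatives) and *Birc3* (−0.13, edgeR adjusted p = 0.0336; up to 0.845) were called as well. The call of *Tnfrsf1b* was lost in 9 of the 20 fits that left out 1 library (edgeR adjusted p up to 0.0749), those without untreated WT replicate 2 or 3, WT zymosan replicate 4 or 5, untreated *Mcu*-/- replicate 1, 2 or 3, or *Mcu*-/- zymosan replicate 4 or 5. Replicate 4 is the only untreated *Mcu*-/- library with the marker shift, so a fit with it as the only one was added after the data were seen; its spread is assumed to be like that of the other groups. The difference was then 0.33 for *Tnf* (SE 0.06, edgeR adjusted p = 1.44e-05), −1.20 for *Fas*, 0.62 for *Tnfsf10*, 0.58 for *Birc2* and 0.37 for *Tnfaip2*, all called. *Tnfrsf1b* was at 0.06 and not called (edgeR adjusted p = 0.554), *Cflar* turned to −0.20 (0.0125) and was called negative, as was *Tnfrsf1a* at −0.30 (6.21e-05), and over all genes 11.4% were positive and 16.9% negative. The size of the *Tnf* difference thus ran from 0.33 to 1.23 with the choice of untreated *Mcu*-/- libraries, and which choice is apt was not tested. This comparison shares its zymosan libraries with the one above, so the values of both are not independent.

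The study used BAPTA-AM to hold intracellular Ca2+ near its resting level. There was no group with BAPTA-AM and without zymosan, and Ca2+ was not measured in these libraries. Other effects of loading therefore cannot be told apart from those on Ca2+. Of the 10 genes, 0 were called higher by edgeR and 3 lower in WT macrophages with zymosan, where 6.43% of all genes were higher and 6.33% lower. DESeq2 called 0 of the 10 higher and 6 lower, against 668 and 1000 of all genes. *Tnfrsf1b* had 25141, 26719, 27335 and 25976 normalized counts in loaded libraries, against 34812, 32320, 32228, 30628 and 30830 without BAPTA-AM. *Traf1* had 1287, 1211, 1195 and 1213 with BAPTA-AM, and *Tnfaip2* had 36086, 34036, 35196 and 35610. Every loaded library was below every unloaded one for these 3 genes and for 4 others, *Tnf*, *Tnfrsf1a*, *Birc2* and *Birc3*, as for 13.2% of all genes. The 3 called genes had log2 fold changes of −0.29 (SE 0.06, edgeR adjusted p = 0.00238), −0.24 (SE 0.07, edgeR adjusted p = 0.0175) and −0.22 (SE 0.06, edgeR adjusted p = 0.0188).

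*Tnf* had 32307, 32676, 32946 and 32359 normalized counts with BAPTA-AM, all below the 35639 of the lowest unloaded library. Its log2 fold change was −0.15 (SE 0.14) and was not called (edgeR adjusted p = 0.549). *Tnfsf10* had 1174, 1274, 1555 and 1499, which overlapped the unloaded libraries, with a log2 fold change of 0.00, and *Fas*, at 2534, 2327, 2495 and 2508, changed by a log2 of −0.09 (edgeR adjusted p = 0.659). Marker sums moved with BAPTA-AM as well, to 14322 to 14561 CPM for macrophage markers (16082 to 16396 without it) and 37.9 to 39.6 CPM for endothelial markers (44.2 to 48.4). Neutrophil markers moved to 2.88 to 3.57 CPM (3.94 to 5.77) and dendritic cell markers to 5.46 to 7.31 CPM (9.1 to 10). Their part in these differences was not tested.

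The spread behind these tests is shared by all 20 libraries, and untreated *Mcu*-/- replicate 4 sets much of it. The biological coefficient of variation, edgeR's name for the spread between libraries beyond counting, was 12.4% with that library and 3.56% without it. As the labels do not name the animals, whether it measures the spread between animals is not known. Without it 8 of the 10 genes were called lower with BAPTA-AM, where 16.5% of all genes were lower and 15.3% higher. *Tnf* was then among them at an unchanged −0.15 (SE 0.03, edgeR adjusted p = 4.35e-05; 2.64e-06 to 0.685 over all alternatives), as were *Birc2* (−0.20), *Birc3* (−0.14), *Tnfrsf1a* (−0.13) and *Cflar* (−0.12), whereas *Fas* (edgeR adjusted p = 0.0963) and *Tnfsf10* (0.965) were not. In the other direction, leaving out BAPTA-AM replicate 2 left 1 gene called, *Tnfrsf1b*, with *Tnfaip2* at an edgeR adjusted p of 0.0659 (4.57e-08 to 0.112 over all alternatives) and *Traf1* at 0.0554. *Traf1* was also lost without BAPTA-AM replicate 3 (edgeR adjusted p = 0.0543) or 4 (0.0537; 4.7e-06 to 0.108 over all alternatives), and *Birc2* was called without untreated WT replicate 2 (0.0427; 0.00899 to 0.24 over all). Apart from fits that left out 1 library, the alternatives gave log2 fold changes of −0.17 to −0.09 for *Tnf* and −0.14 to −0.06 for *Tnfrsf1a*. They gave −0.16 to −0.08 for *Birc3*, −0.15 to −0.06 for *Cflar* and −0.11 to −0.03 for *Fas*. With library totals the median of all genes moved by 0.06.

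Set side by side, *Tnfrsf1b*, *Traf1* and *Tnfaip2* were higher in *Mcu*-/- (log2 fold changes 0.29, 0.48 and 0.63) and lower with BAPTA-AM (−0.29, −0.24 and −0.22). *Birc2* was at 0.41 and −0.20, *Cflar* at 0.39 and −0.12, *Birc3* at −0.14 and −0.14, and *Tnfrsf1a* at −0.01 and −0.13. *Tnfsf10* was at 0.62 and 0.00, *Fas* at −1.94 and −0.09, and *Tnf* at 1.09 and −0.15 in the same order. Both comparisons use the 5 WT libraries with zymosan as their control and are not independent.

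**Figure D3:**
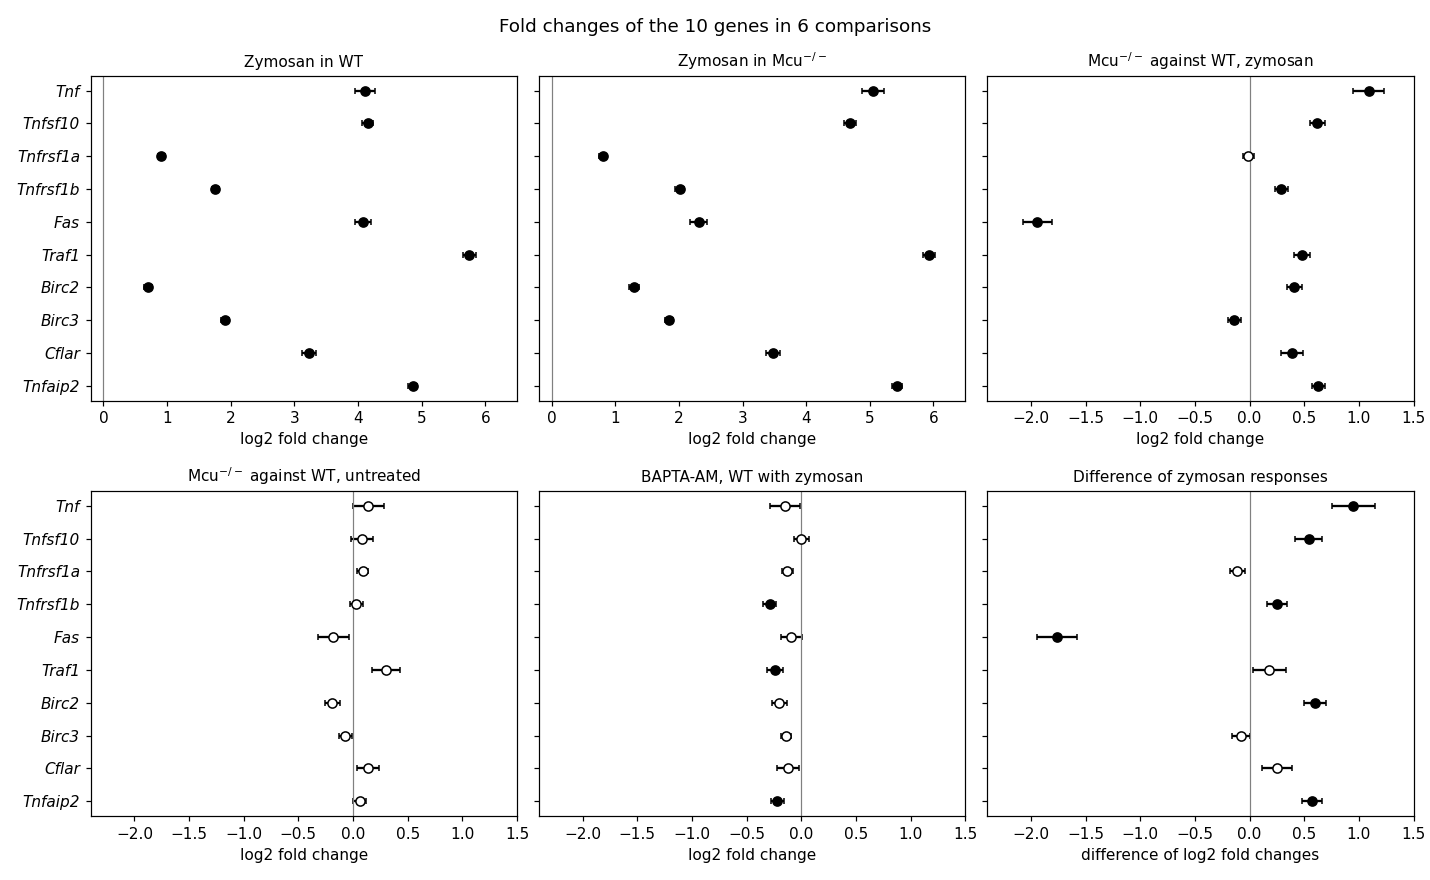
Log2 fold change (x axis) of each of the 10 genes in the 6 comparisons, with bars of 1 SE; filled points have an edgeR adjusted p under the threshold. All 10 points are filled with zymosan in both genotypes, none in the untreated comparison, and *Fas* (−1.94) lies farthest below 0 in *Mcu*-/- against WT with zymosan.

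Other genes of the pathway were described in 7 lists with 139 genes, of which 122 were tested. Genes ranked or named from them reached 10 CPM in the higher group. With zymosan in WT, 73 were called higher and 24 lower, where 32.4% of all genes were higher and 36.8% lower, with a median log2 fold change of 0.44 against −0.04 over all genes. All 11 genes of the NF-κB subunits and inhibitors were higher (median 2.36), among them *Nfkbie* (log2 fold change 5.54) and *Nfkb2* (2.97). Of the other TNF superfamily ligands 8 of 11 were higher, *Tnfsf9*, the 4-1BB ligand, by 4.35, and *Tnfsf15*, which had 2.13 ± 1.11 normalized counts untreated, reached 2457 ± 225. Of the other receptors 4 of 14 were higher, led by *Cd40* (4.77), and 6 were lower, led by *Relt* (−3.34) and *Tnfrsf21* (−2.05). Among the receptor complex genes 18 of 28 were higher, led by *Tnfaip3* (5.94), which encodes the ubiquitin editor A20, and *Tnip3* (4.25), and 4 were lower, *Tab1* the most (−2.48).

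Death receptor execution genes were higher in 10 of 16 cases and lower in 3 with zymosan in WT, with *Zbp1* (3.45) and the necroptosis effector *Mlkl* (2.21) highest and *Casp9* (−1.29) and *Fadd* (−1.21) lowest. Of the BCL2 family and other survival genes 11 of 22 were higher, led by *Gadd45b* (4.12) and by *Bbc3* (3.85), which encodes the death-promoting protein PUMA, and 5 were lower, of which *Bcl2l1* had −1.08. In the list of TNF shedding, mRNA decay and TNFAIP genes 11 of 20 were higher and 6 lower. There *Zfp36*, which encodes tristetraprolin, a protein that destabilizes *Tnf* mRNA, rose by 3.08, *Rhbdf2*, which carries the TNF-releasing protease ADAM17, by 2.33, and *Zfp36l2* had −1.91. In *Mcu*-/- macrophages zymosan raised 74 and lowered 26 of the 122 (34.3% and 39.4% of all genes), with *Nfkbie* at 5.88, *Tnfaip3* at 5.49, *Cd40* at 4.58 and *Ltb*, the lymphotoxin beta gene 3060 bases from *Tnf*, at −1.89. These values rest on the untreated *Mcu*-/- libraries used. Without replicate 4 they were 6.52, 6.26, 5.05 and −2.2, and with it as the only untreated *Mcu*-/- library 4.80, 4.32, 3.69 and −0.01.

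In *Mcu*-/- against WT with zymosan, 38 of the 122 genes were higher, where 31.8% of all genes were, and 45 lower, where 30.3% were, with a median log2 fold change of −0.03 against 0.02 over all genes. By list, the genes higher and lower were 3 and 6 of 11 ligands, 5 and 5 of 14 receptors and 7 and 8 of 28 receptor complex genes. They were 6 and 2 of 11 NF-κB genes, 4 and 7 of 16 execution genes, 6 and 9 of 22 survival genes and 7 and 8 of 20 shedding and decay genes. *Ltb* had 84.0 ± 2.92 normalized counts in *Mcu*-/- and 581 ± 71.3 in WT (log2 fold change −2.79, edgeR adjusted p = 2.57e-06), the opposite direction to *Tnf* beside it. *Tnfsf9* had 2815 ± 51.5 and 874 ± 65.6 (1.69, edgeR adjusted p = 1.26e-06). *Bbc3* (−1.84) and *Bid* (−0.79) were lower, as was *Fas*. Higher were *Naip2* (0.82) and *Bcl2* (0.83) and, of the execution genes, *Apaf1* (0.49) and *Bak1* (0.43). *Birc5*, which encodes survivin, had the largest fall of the survival genes, at 22.5 ± 1.78 in *Mcu*-/- and 435 ± 53.4 in WT (−4.27, edgeR adjusted p = 6.54e-05). Untreated *Mcu*-/- replicate 4 had moved the same way for most of these genes. It had 20.6 normalized counts of *Birc5* (575 ± 27.5 in untreated WT), 84.2 of *Ltb* (431 ± 27.3), 133 of *Tnfsf9* (42.7 ± 3.22), 2037 of *Naip2* (1423 ± 46.9), 357 of *Bcl2* (171 ± 9.74) and 716 of *Bid* (969 ± 31.5). It also had 807 of *Apaf1* (544 ± 23.3) and 2734 of *Bak1* (1950 ± 127). For *Bbc3* it had 267 against 166 ± 8.67, the other direction.

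With BAPTA-AM, 6 of the 122 were higher and 24 lower, where 6.43% and 6.33% of all genes were, with a median log2 fold change of −0.04 against 0.00. Without untreated *Mcu*-/- replicate 4 they were 16 and 45, where 15.3% and 16.5% of all genes were. Among the 5 NF-κB genes that were lower were *Nfkbid* (−0.36) and *Nfkbiz* (−0.35), and in the other lists *Zfp36l1* (−0.81), *Ier3* (−0.60), *Bcl2a1d* (−0.56) and *Tnip3* (−0.37) were lower and *Otulin* (0.25) and *Bcl2l1* (0.28) higher. In untreated macrophages edgeR called 0 of the 122 in *Mcu*-/- against WT, where it called 0.128% of all genes higher and 0.222% lower. At an unadjusted p under 0.05 there were 19, against 1743 of all 11707 genes, and DESeq2 called 2 lower and 0 higher, against 55 and 57 of all genes. Without replicate 4, 0 were higher and 5 lower, where 1.53% and 1.83% of all genes were. The difference of the zymosan responses was called positive for 27 and negative for 34 of them, where 15.2% and 20% of all genes were, and for 45 and 45 without replicate 4, where 31% and 29.3% were.

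Over the 20 libraries, log2 CPM of 8 of the 10 genes, all but *Fas* and *Birc2*, correlated with each other with Pearson r of 0.97 to 1.00. *Fas* had r of 0.73 to 0.95 and *Birc2* of 0.73 to 0.94 with the others, with 0.73 between these 2 genes. Among 8340 genes with at least 10 CPM in some group, those most like *Tnf* were *Ccl3* (r = 0.998), *Gja1* (0.998) and *Sap30* (0.997), and those most like *Tnfsf10* were *Rel*, *Fam26f* and *Dnaja2* (0.997 each). For *Traf1* they were *Sav1*, *Ccrl2* and *Trim21* (0.998 each), and for *Tnfrsf1a* *Il1rn* (0.998), a repeated entry of *Pnp* (0.996) and *Zfp36* (0.996). The libraries fall into untreated and zymosan groups and are not independent points, so these values describe the shared step with zymosan.

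The 250 bases before each gene's RefSeq start were read from RefSeq promoters (GRCm38.p6), which hold all 10 genes, *Birc2* with 2 starts. For some genes these starts differ from those of the annotation that gave the exon lengths. There *Tnfrsf1a* starts at 125349362, so its window (chr6:125349473-125349722) lies wholly inside that gene. Both strands were searched for the NF-κB consensus, for TGANTCA, which AP-1 binds, and for GAAANNGAA, an interferon response element; these motifs were chosen after the data were seen. They occur in 7.25%, 6.75% and 7.13% of the 32851 promoters in the table, and each had a match in 1 of the 10 genes. *Tnfaip2* and *Fas* are shown as examples of genes with a match, which is in capitals. *Traf1*, which rose most with zymosan, *Tnf* and *Tnfsf10* had no match to any of these motifs. *Tnfaip2* is at chr12:111442411-111442660, plus strand, with a match from position −24 that reads as the NF-κB consensus on the opposite strand. *Fas* is at chr19:34290409-34290658, plus strand, with the AP-1 letters from position −211. The annotation that gave the exon lengths starts *Tnfaip2* at 111442469, so by it the *Tnfaip2* match lies inside the gene.
Tnfaip2: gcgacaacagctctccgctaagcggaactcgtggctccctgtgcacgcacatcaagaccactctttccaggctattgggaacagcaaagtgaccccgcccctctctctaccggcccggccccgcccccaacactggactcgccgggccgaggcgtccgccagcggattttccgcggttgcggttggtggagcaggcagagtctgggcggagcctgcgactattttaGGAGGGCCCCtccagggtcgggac
Fas: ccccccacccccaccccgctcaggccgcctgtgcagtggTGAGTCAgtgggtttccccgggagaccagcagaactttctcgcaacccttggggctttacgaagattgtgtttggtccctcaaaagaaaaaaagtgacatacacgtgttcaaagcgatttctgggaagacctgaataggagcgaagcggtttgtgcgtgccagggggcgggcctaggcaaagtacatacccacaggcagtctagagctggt
The interferon element letters were found once, in *Tnfrsf1b* (chr4:145246871-145247120, minus strand) from position −9, on the strand opposite to the gene. A match describes these letters only, and binding was not measured here.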

How the data were processed

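The 10 members and the gene lists were picked when earlier results of these data were already known. The counts are those the authors deposited: paired-end reads were trimmed (cutadapt), aligned to mm10 (STAR) and assigned to genes (HTSeq) before any step made here. Column names gave the group of each library. Numbers 3, 4 and 5 stand on the *Mcu*-/- zymosan columns although the titles of those samples run from 1 to 3, and the text uses the column numbers.

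The software was R 4.3.3 (edgeR 4.0.16; limma 3.58.1; DESeq2 1.42.0), and Python 3.11.15 with matplotlib 3.10.9 for figures. After filterByExpr and TMM scaling, all 20 libraries entered 1 quasi-likelihood fit of edgeR with a coefficient for every group, and p was adjusted by Benjamini-Hochberg over 11707 entries. Entries that repeat an earlier symbol (25) were not merged. Exon lengths are from GENCODE M21. Simulated data were used to test the scripts.

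Genes named are the members, *Mcu*, markers, examples from the 2 highest and 2 lowest called genes per list and comparison, limited to those whose higher group reached 10 CPM, and the 3 genes most correlated with *Tnf*, *Tnfsf10*, *Traf1* or *Tnfrsf1a*. *Fasl* was named after its values were seen. The result of 1 listed gene is not reported here. The alternatives changed the scaling (size factors of DESeq2, or library totals), the filter (none beyond 1 count in a library, or 10 counts in all libraries), the test (Wald test of DESeq2) or the libraries (compared groups alone, replicate number as block, each library left out once). A fit with replicate 4 as the only untreated *Mcu*-/- library was added after the data were seen.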

Additional observations from a re-analysis of the deposited data

Results flagged for a closer look

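Of 40 sets of values, 10 genes in each of the 4 groups with 4 or 5 libraries, 4 held a library whose gap to the nearest of its group was large for the group's range, and chance gives about 1 in 20. All 4 were untreated *Mcu*-/- replicate 4, with 3581 normalized counts of *Tnf*, 3480 of *Tnfrsf1a*, 11088 of *Tnfrsf1b* and 3491 of *Cflar*. As these are 4 genes of 1 library, they are not independent, and the cause was not tested.

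The zymosan response differed between *Mcu*-/- and WT macrophages by edgeR's test of the difference for 6 genes. The difference of log2 fold changes was 0.95 for *Tnf*, 0.54 for *Tnfsf10*, 0.25 for *Tnfrsf1b*, −1.76 for *Fas*, 0.60 for *Birc2* and 0.57 for *Tnfaip2*. With replicate 4 as the only untreated *Mcu*-/- library it was 0.33 for *Tnf* and 0.06, not called, for *Tnfrsf1b*.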

How the results depend on the processing

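The calls of all 10 genes as higher with zymosan in both genotypes, and of 7 as higher in *Mcu*-/- with zymosan, held under every alternative run. Lower in *Mcu*-/- with zymosan were 2 genes, but 1 with DESeq2's size factors and 1 with no filter, and 1 to 2 leaving out a library. With BAPTA-AM, 3 genes were lower, but 5 with DESeq2's size factors, 6 with DESeq2, 8 in the groups compared alone and 1 to 8 leaving out a library. Leaving out a library gave 0 to 1 genes lower in untreated *Mcu*-/- and, for the difference of zymosan responses, 4 to 6 positive and 1 to 2 negative. The difference of *Tnfrsf1b* was also lost with no filter (edgeR adjusted p = 0.0545) and in the groups compared alone (0.0577).

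Over all genes, library totals gave 1834 higher and 8018 lower with zymosan in WT (3790 and 4303 with TMM) and 1878 and 7999 in *Mcu*-/- (4017 and 4618). In untreated *Mcu*-/- against WT 15 were higher and 26 lower, but 57 and 55 with DESeq2, 2 and 3 in the groups compared alone and 13 lower with at least 10 counts in every library; leaving out a library gave 5 to 178 higher and 14 to 213 lower. With BAPTA-AM 753 were higher and 741 lower (50.4% of calls higher), but 1566 and 525 with library totals (74.9%) and 1741 and 1788 in the groups compared alone; leaving out a library gave 511 to 1783 and 525 to 1929. For the difference of zymosan responses leaving out a library gave 1415 to 3622 positive. The highest of each of these ranges came without untreated *Mcu*-/- replicate 4. Fewer genes tested or fewer libraries enter some of these fits; beyond that the cause was not tested.

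Signs turned leaving out 1 library: without *Mcu*-/- zymosan replicate 3, *Tnfrsf1a* was at 0.01 against WT (−0.03 to 0.01 over all such fits). With BAPTA-AM, *Tnfsf10* ran from −0.07 without BAPTA-AM replicate 3 to 0.07 without BAPTA-AM replicate 1. Without untreated *Mcu*-/- replicate 4, the untreated differences were −0.14 for *Tnf* (−0.14 to 0.26 over all), −0.04 for *Tnfrsf1b* (−0.04 to 0.07), −0.04 for *Cflar* (−0.04 to 0.21) and −0.02 for *Tnfaip2* (highest 0.1).

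With replicate 4 as the only untreated *Mcu*-/- library, a fit added after the data were seen, 4 differences of zymosan responses were positive and 3 negative, among them *Cflar* at −0.20, and *Traf1* (−0.14) and *Birc3* (0.13) turned without a call. That fit has 17 libraries and 1 in that group; beyond that the cause was not tested.

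No pairing by replicate number was seen: deviations of same-numbered libraries correlated by −0.055 to 0.061 and none exceeded 0.1. With the replicate block, over the 17 libraries whose column carries its label's number, 1 of the 10 genes was lower with BAPTA-AM, 418 genes were higher and 461 lower, and in untreated *Mcu*-/- 6 were higher and 16 lower. Genes at few counts, such as *Traf1* untreated (18 to 50 counts per library), limit the precision of their fold changes, and these values cover RNA only.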
